A study of Homo sapiens with 6 samples.

Results

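The genes described here centre on UBD, which encodes the ubiquitin-like modifier FAT10, and on the machinery linked to it: UBA6, the immunoproteasome subunit genes PSMB8, PSMB9 and PSMB10, and the proteasome cap genes PSME1 and PSME2. The only probe set of UBD on the array also carries the symbol GABBR1, so GABBR1 is included. Every probe set whose platform symbol named any of these 8 genes was taken, which gave 15 of 54613 probe sets. The group was selected on the difference of this shared probe set between the pressures, the highest of all 54613 probe sets, so that difference is described below and not tested. The other 14 probe sets were taken by symbol. RNA came from HaCaT cells, an immortalised line of human skin keratinocytes grown in serum-containing medium, so all replicates share 1 line. Of 6 cultures, 3 stood at ambient pressure and 3 in an incubator that held a negative pressure of 125 mmHg, all for 12 h. The labels name the replicates biological, give no other treatment or genotype, and p-values measure the spread between these arrays.

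UBD is joined covalently to other proteins, as ubiquitin is. The activating enzyme UBA6 and the conjugating enzyme UBE2Z attach it, and proteins that carry it are handed to the proteasome. Interferon gamma and TNF are known inducers of UBD and of the immunoproteasome, in which PSMB8, PSMB9 and PSMB10 take the places of the constitutive catalytic subunits PSMB5, PSMB6 and PSMB7. PSME1 and PSME2 form a cap that opens the proteasome core and favours the release of peptides suited to MHC class I. GABBR1 is a subunit of the GABA-B receptor, a receptor for an inhibitory neurotransmitter, and has no known role in this pathway.

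Promoter sequences of all 8 genes were read from the RefSeq promoter table (GRCh38.p14, 250 bases before to 50 after an annotated start), and those that hold a motif of an interferon or NF-kB responsive factor are shown because these factors are the textbook inducers of the genes. Searched on both strands were the core of the interferon-stimulated response element (ISRE; GAAANNGAA), the gamma-activated site (GAS; TTCNNNGAA, a palindrome) and the NF-kB motif. The ISRE core was present in 8.11% of 35116 promoters in the table, the GAS in 7.66% and the NF-kB motif in 11.3%. Capitals mark the matches, and each sequence runs 5′ to 3′ along the gene's own strand. The UBD promoter (chr6:29559683-29559982, minus strand) held 1 NF-kB match. The promoter at the downstream of the start sites listed for PSMB8 (chr6:32843998-32844297, minus strand) held 1 ISRE core and a GAS:
UBD: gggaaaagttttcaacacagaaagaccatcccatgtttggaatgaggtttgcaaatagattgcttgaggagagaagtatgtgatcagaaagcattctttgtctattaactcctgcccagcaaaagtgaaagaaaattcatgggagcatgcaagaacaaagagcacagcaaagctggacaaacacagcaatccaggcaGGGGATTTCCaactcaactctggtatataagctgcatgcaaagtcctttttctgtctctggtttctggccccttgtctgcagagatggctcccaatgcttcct
PSMB8: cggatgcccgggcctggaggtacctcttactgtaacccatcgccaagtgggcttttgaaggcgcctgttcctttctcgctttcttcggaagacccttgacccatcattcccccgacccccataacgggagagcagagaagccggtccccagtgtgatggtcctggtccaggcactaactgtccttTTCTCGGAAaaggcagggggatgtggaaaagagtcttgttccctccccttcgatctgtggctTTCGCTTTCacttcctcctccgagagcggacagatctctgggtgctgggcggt
The ISRE core of PSMB10 (chr16:67936853-67936881, minus strand), PSME1 (chr14:24136190-24136218, plus strand) and PSME2 (chr14:24146620-24146648, minus strand) is shown with 10 bases on each side:
PSMB10: gggtaaaggcGAAAGCGAAagcaggaagt
PSME1: ccctaccgctTTCGCTTTCccttcgcggt
PSME2: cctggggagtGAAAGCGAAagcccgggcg
The windows of PSMB9, UBA6, GABBR1 and the upstream start of PSMB8 held none of these letters, which says nothing of elements outside them. The window at the upstream start of TAP1, the neighbour of PSMB9, adjoins that of PSMB9 (chr6:32853655-32853954, minus strand). It held 2 ISRE cores, which overlap each other in 1 run of bases, and 2 NF-kB matches. A match is a description of the sequence and not a binding site.

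Values are log2 RMA values, so a difference of 1 is a doubling, and levels of different probe sets are not comparable. In the limma fit over all probe sets, 262 of 54613 passed an adjusted p of 0.05 (0.48%), 151 higher and 111 lower under negative pressure, and the median difference was 0.006. The replicate 3 arrays of both pressures stood apart on the first principal component (40.4% of the variance), at 39.96 and 46.83 against -24.37 to -14.77 for the other 4, so differences are also given without both. Keratinocyte markers were bright: the 7 of 9 listed that had a single-gene probe set had means from 8.35 (DSG3) to 12.5 (SFN). KRT6A and TP63 were not analysed here. Precision is bounded by having 3 arrays in a group. In whole cultures, more cells with a transcript and more transcript per cell cannot be told apart.

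The shared probe set of UBD and GABBR1 read 7.04, 6.82 and 7.13 at ambient pressure in replicates 1 to 3 and 9.26, 9.42 and 9.13 under negative pressure. Every negative pressure array lay above every ambient array, and the SD within a group was 0.16 at ambient and 0.14 under negative pressure (n = 3 each). The group was selected on this gap, so its size beside the SD is no test of it. The difference of the means was 2.27 ± 0.13 (SE), a 4.83-fold higher signal. By replicate number it was 2.22, 2.59 and 2.0, and without both replicate 3 arrays 2.41. Over all alternative settings it ran from 2.18 to 2.41. At a mean of 8.13 the probe set was brighter than 91.3% of all probe sets.

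The platform table gives a RefSeq mRNA of UBD, and none of GABBR1, as the source record of the shared probe set. UBD and GABBR1 lie on chromosome 6 without overlapping each other in the RefSeq annotation (GRCh38.p14). Between them lie 5 annotated genes, among them the olfactory receptor gene OR2H2. The span of 1 other annotated gene, OR2I1, overlaps that of UBD, and its part in the shared signal was not tested. The single-gene probe sets of GABBR1 allow the GABBR1 side to be read on its own. The brighter GABBR1 probe set, whose source record is a GABBR1 mRNA, read 4.70, 5.01 and 4.95 at ambient and 4.73, 4.87 and 5.09 under negative pressure. The groups overlapped, with a difference of 0.01 ± 0.14 (SE; limma adjusted p = 0.993) and a 95% interval from -0.31 to 0.33. The dimmer GABBR1 probe set read 3.85, 3.68 and 4.31 against 3.72, 4.01 and 3.99, a difference of -0.04 ± 0.18 (adjusted p = 0.975) with an interval from -0.44 to 0.35. The upper ends correspond to at most a 1.28-fold rise in the signal of these 2 probe sets. Neither log2 interval holds the log2 difference of 2.27 of the shared probe set. Both are dim, with means of 4.89 and 3.93 at percentiles 64.7 and 51.3 of all probe sets. Which transcript each single probe of the shared probe set bound was not tested, since probe-level files were not used here.

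**Figure D1:**
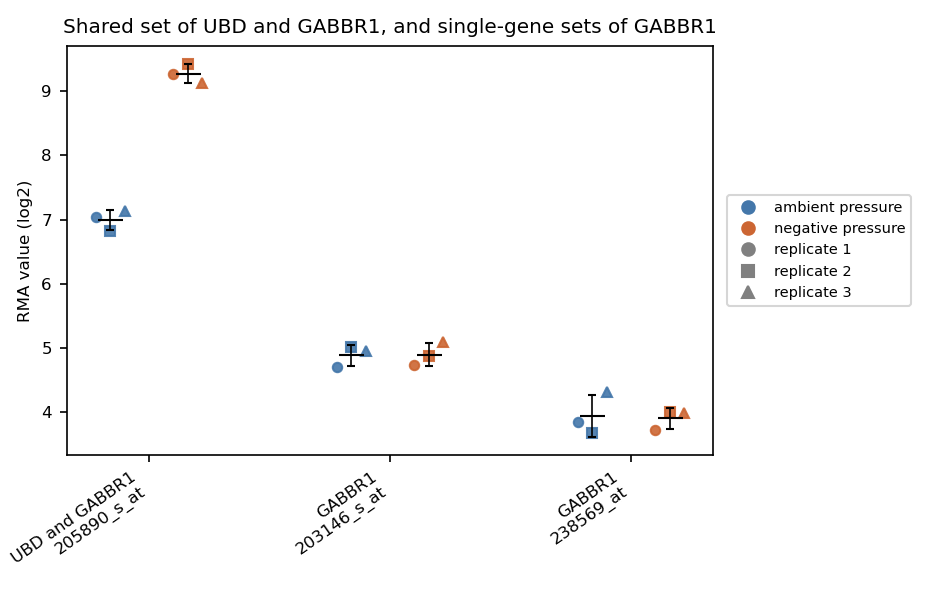
RMA values (log2, vertical axis) of the probe set named by both UBD and GABBR1, and of the GABBR1 probe sets, for each of the 3 ambient (blue) and 3 negative pressure (orange) arrays; marker shapes give the replicate number, and bars the mean and SD. The shared probe set sits between 6.82 and 7.13 at ambient and between 9.13 and 9.42 under negative pressure, while both GABBR1 probe sets overlap; heights of different probe sets are not comparable.

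GABBR1 works only together with GABBR2, the subunit that couples the receptor to G proteins. GABBR2 was dim and read 3.58, 3.64 and 3.91 at ambient against 3.71, 3.77 and 3.62 under negative pressure, a difference of -0.01 ± 0.13 (SE; adjusted p = 0.992). Of the 7 measured genes of a list of GABA-B receptor partners and effectors, none passed in limma, 1 had an unadjusted p under 0.05 (the potassium channel gene KCNJ6, 0.29), and the median difference was -0.01. An unadjusted p under 0.05 was found for 9.86% of all probe sets. KCNJ3 was not analysed here.

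UBA6, the enzyme that activates UBD and also ubiquitin, was measured by 7 probe sets that spanned means from 2.03 to 7.67. Differences ran from -0.18 to 0.10, with adjusted p from 0.764 to 0.982, and the groups overlapped in each. The brightest (mean 7.67) read 7.89, 7.79 and 7.44 at ambient and 7.63, 7.70 and 7.58 under negative pressure, a difference of -0.07 ± 0.14 (95% interval from -0.39 to 0.24). The UBA6 probe set of mean 6.26, the only one whose source record is a RefSeq mRNA of UBA6, read 6.81, 6.57 and 5.67 against 6.18, 6.64 and 5.67. In this probe set and in that of mean 7.10 (7.29, 7.35 and 6.72 against 7.30, 7.40 and 6.51) the low values were those of both replicate 3 arrays, not of a pressure group. The UBA6 probe set of mean 6.73 stood at -0.17 (6.80, 6.92 and 6.71 against 6.54, 6.64 and 6.75; adjusted p = 0.764), and at -0.27 without both replicate 3 arrays (adjusted p = 0.335). The 3 dimmest UBA6 probe sets, with means of 2.03, 2.93 and 3.41, lay below the median of all probe sets, 3.84. Their differences were -0.04, -0.09 and 0.10. The widest of the 7 intervals, that of the probe set of mean 6.26, ran from -0.90 to 0.53.

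**Figure D2:**
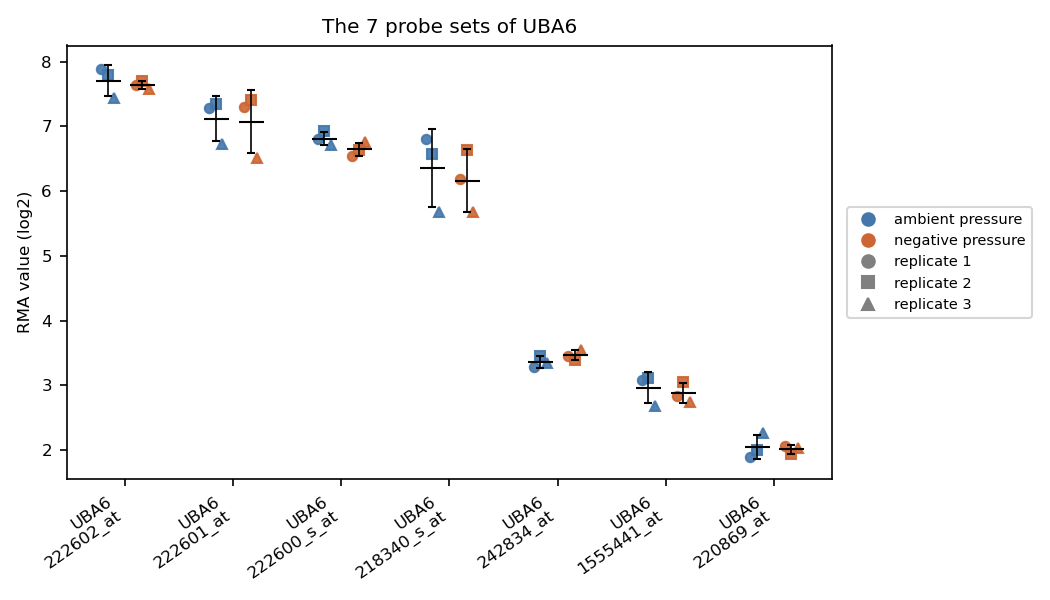
RMA values (log2, vertical axis) of the 7 probe sets of UBA6 by array, ambient in blue and negative pressure in orange, with mean and SD; marker shapes give the replicate number. The pressure groups overlap in every probe set, and the replicate 3 arrays (triangles) are the lowest in both groups for 4 of the 7, with the widest gap at means 7.10 and 6.26.

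A list of 8 genes held enzymes that attach UBD or ubiquitin and proteins that bind UBD. Of these 8, 1 rose and 7 did not pass, with a median difference of 0.12. The 1 was SQSTM1, a cargo receptor of autophagy that also binds UBD: 9.43, 9.45 and 9.50 at ambient against 10.10, 10.18 and 10.02 under negative pressure (0.64 ± 0.11, SE; adjusted p = 0.0498). Its adjusted p lies at the edge of the threshold. The call was lost with quantile normalization repeated (0.0549), with median centring (0.0629), with cyclic loess (0.0535) and when any 1 array was left out (0.0593 to 0.232). Its 4 other probe sets stood between -0.08 and 1.02, and 1 of them passed (1.02 ± 0.15, adjusted p = 0.0303), a call kept in 1 of 6 fits that left out 1 array (0.0294 to 0.158). UBE2Z, the conjugating enzyme of UBD, stood at 0.16 ± 0.12 (adjusted p = 0.799). BIRC6, another conjugating enzyme that takes ubiquitin from UBA6, stood at -0.33 ± 0.16 (0.582), and UBA1, the main activating enzyme of ubiquitin, at 0.21 ± 0.20 (0.857). NUB1 speeds the breakdown of UBD, and its probe sets disagreed. The brightest read 7.55, 7.56 and 7.31 against 7.82, 7.85 and 7.79 (0.35 ± 0.12, adjusted p = 0.325). Another NUB1 probe set read 8.02, 8.06 and 7.89 against 7.13, 7.35 and 6.95 and fell by 0.85 (adjusted p = 0.0369). The groups of both NUB1 probe sets did not overlap, in opposite directions, so no direction can be given for the gene. The fall lost its call with median centring (0.0520) and without any 1 array (0.0594 to 0.216).

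PSMB8, the immunoproteasome counterpart of PSMB5, read 8.30, 8.42 and 8.55 at ambient and 8.69, 8.71 and 8.97 under negative pressure. All 3 negative pressure arrays lay above all 3 ambient arrays, by a small margin. The difference was 0.37 ± 0.13 (SE; 95% interval from 0.07 to 0.66), a ratio of 1.29, with an adjusted p of 0.357 in limma, and it did not pass. By replicate number it was 0.39, 0.29 and 0.42, and with the replicate block the adjusted p was 0.136. Without both replicate 3 arrays it stood at 0.34. PSMB9, the counterpart of PSMB6, read 8.60, 8.72 and 8.81 against 8.83, 8.93 and 9.23. The lowest negative pressure array exceeded the highest ambient array by little, and the highest value was that of negative pressure replicate 3. The difference was 0.29 ± 0.14 (interval from -0.02 to 0.60; adjusted p = 0.558), 0.22 with the replicate 3 arrays of both pressures left out and 0.17 with that of negative pressure alone left out. Over all settings PSMB8 ran from 0.28 to 0.43 and PSMB9 from 0.17 to 0.37, neither passing in any. PSMB10, the counterpart of PSMB7, lies on chromosome 16 and not beside the others on chromosome 6. It read 8.08, 8.12 and 8.07 against 8.01, 8.02 and 8.08, a difference of -0.05 ± 0.11 (interval from -0.29 to 0.18; adjusted p = 0.944).

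PSME1 read 9.85, 9.83 and 10.03 at ambient and 10.08, 9.96 and 10.07 under negative pressure, with overlapping groups (0.13 ± 0.11, SE; adjusted p = 0.828). The probe set of PSME2 also carries the symbol MIR7703, a microRNA gene annotated inside PSME2. It read 10.00, 10.05 and 9.87 against 10.23, 10.20 and 9.93, again with overlap (0.15 ± 0.13, adjusted p = 0.830). Intervals ran from -0.12 to 0.39 for PSME1 and from -0.14 to 0.43 for PSME2. The replicate 3 arrays had the lowest PSME2 values of both groups, and without them PSME2 stood at 0.19. Of the negative pressure arrays, dropping replicate 1 gave 0.0926 and dropping replicate 3 gave 0.241. Both were among the brightest members, near the 98th percentile (97.8 and 97.9).

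The constitutive subunits were measured alongside. PSMB5 stood at 0.05 ± 0.12 (SE; adjusted p = 0.957), PSMB6 at 0.04 ± 0.11 (0.962) and PSMB7 at -0.09 ± 0.11 (0.90). All groups overlapped, and intervals lay within -0.35 and 0.31. The interval of PSMB8, from 0.07 to 0.66, overlaps that of PSMB5, from -0.21 to 0.31, and the difference between counterparts was not tested. None of 5 other caps and regulators passed (median -0.14), with the proteasome activator PSME4 at -0.44 (adjusted p = 0.637). None of 5 assembly factors passed either, all below 0 with a median of -0.23, and 2 of them had an unadjusted p under 0.05 in limma: PSMG2 (-0.37, adjusted p = 0.449) and PSMG4 (-0.33, 0.403). Of all probe sets 9.86% did, dim ones included, while each list gene was read by its brightest. In the list of caps, as among the constitutive subunits, none had an unadjusted p under 0.05.

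**Figure D3:**
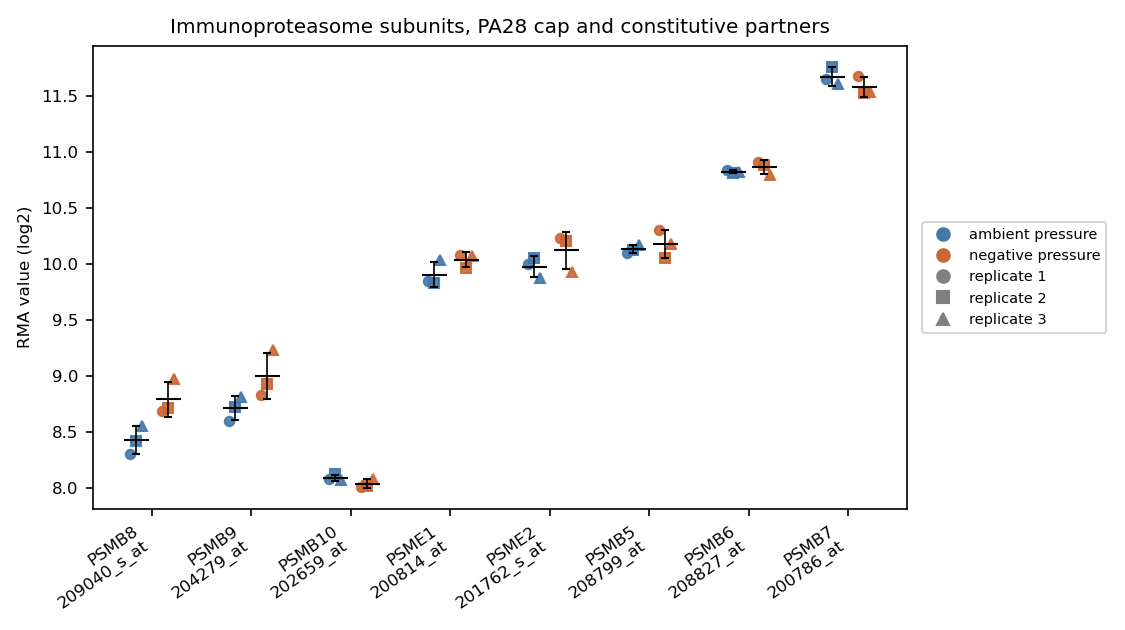
RMA values (log2, vertical axis) of the immunoproteasome subunits, the cap subunits PSME1 and PSME2 (this probe set is also named MIR7703) and the constitutive subunits, by array with mean and SD; ambient in blue, negative pressure in orange, marker shapes for replicate numbers. Only PSMB8 and PSMB9 have groups that do not overlap among the 8 probe sets shown; heights of different probe sets are not comparable.

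Apart from the shared probe set, none of the 14 member probe sets passed in limma against 0.48% of all probe sets. PSMB8 was the 1 with an unadjusted p under 0.05 (0.0200), which held for 9.86% of all probe sets. With the replicate block PSMB9 joined it (0.0301), so that 2 of the 14 lay under 0.05, beside 14.9% of all probe sets. Groups did not overlap in 2 of the 14, PSMB8 and PSMB9, against 15.0% of all probe sets, a share near the background. Of the 14, 6 lay above 0 and the median was -0.039, beside 51.5% above 0 and a median of 0.006 over all probe sets.

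**Figure D4:**
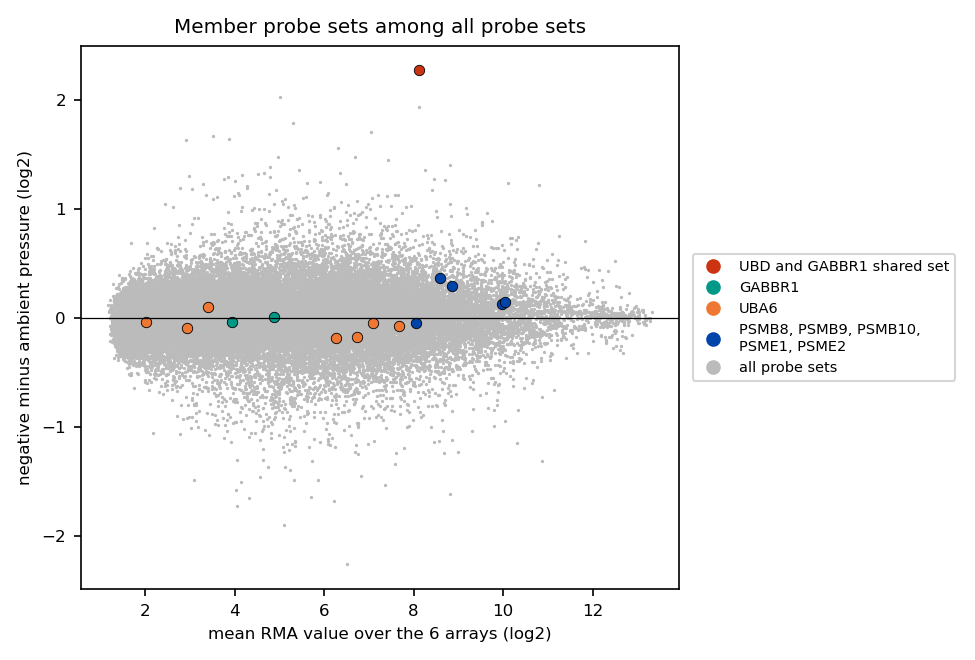
Difference of negative minus ambient pressure (log2, vertical axis) against the mean over the 6 arrays (log2, horizontal axis) for all 54613 probe sets (grey), with the 15 members in colour. The shared probe set of UBD and GABBR1 lies at 2.27, the highest of all, and the other 14 lie between -0.18 and 0.37.

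Among regulators of the immunoproteasome, IRF1, a transcription factor that binds the ISRE, rose: 7.30, 7.40 and 7.29 at ambient against 8.19, 8.11 and 8.74 under negative pressure (1.02 ± 0.17, SE; adjusted p = 0.0460). Negative pressure replicate 3 held the highest value, and the rise was 0.80 with both replicate 3 arrays left out (adjusted p = 0.0279). A second IRF1 probe set stood at 0.77 and did not pass. The call held when negative pressure replicate 3 was left out (0.0371) and was lost when any other 1 array was (up to 0.209), with quantile normalization repeated (0.0742), cyclic loess (0.0683), and trend and robust variance (0.0511). The other 13 of 14 measured regulators did not pass. The median over the list was 0.22, with 7 of 14 at an unadjusted p under 0.05, beside 9.86% of all probe sets. That share includes dim probe sets, while each list gene was read by its brightest, so the shares are of unlike sets. IRF9, part of the complex that carries type I interferon signals, stood at 0.45 ± 0.12 (adjusted p = 0.176). The interferon gamma receptor genes IFNGR1 and IFNGR2 stood at 0.33 (0.442) and 0.36 (0.349), and the TNF receptor gene TNFRSF1A at 0.48 (0.346). Of the kinase genes of the interferon gamma receptor, JAK1 stood at 0.31 (0.432) and JAK2, dim at a mean of 4.0, at -0.02 (0.989). NLRC5, the activator of MHC class I genes, stood at 0.10 ± 0.13 (0.906) and TNF at -0.28 (0.701). The NF-kB subunit genes NFKB1 and RELA stood at 0.12 (0.887) and -0.02 (0.990). IFNG was at the dim end, with values from 1.78 to 2.73 and overlapping groups.

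None of 8 genes that supply peptides to MHC class I passed in limma, and the median difference was 0.16. Of the 8, 4 had an unadjusted p under 0.05 in limma (9.86% of all probe sets did, dim ones included). TAP1, a subunit of the peptide transporter and neighbour of PSMB9, read 7.97, 7.59 and 7.88 against 8.17, 8.17 and 8.18 (0.35 ± 0.13, SE; adjusted p = 0.373), without overlap. TAP2, its partner subunit, read 8.18, 8.18 and 7.94 against 7.57, 7.57 and 7.08, a difference of -0.70 ± 0.16 (0.122) that passed with the replicate block (adjusted p = 0.0182), while its 3 other probe sets stood between -0.20 and 0.08. The chaperone gene CALR stood at 0.53 (0.142) and the peptide-trimming enzyme gene ERAP2 at 0.49 (0.255). Of 10 measured genes of other ubiquitin-like modifiers and of the ISG15 enzymes, none passed and 1 had an unadjusted p under 0.05: UBE2L6, the conjugating enzyme of ISG15, at 0.51 ± 0.18 (adjusted p = 0.356). ISG15, itself a modifier that interferon induces, stood at 0.07 ± 0.11 (0.931). Over the 8 lists, 60 of 66 genes were measured, and 2 rose and none fell by their brightest probe set.

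**Figure D5:**
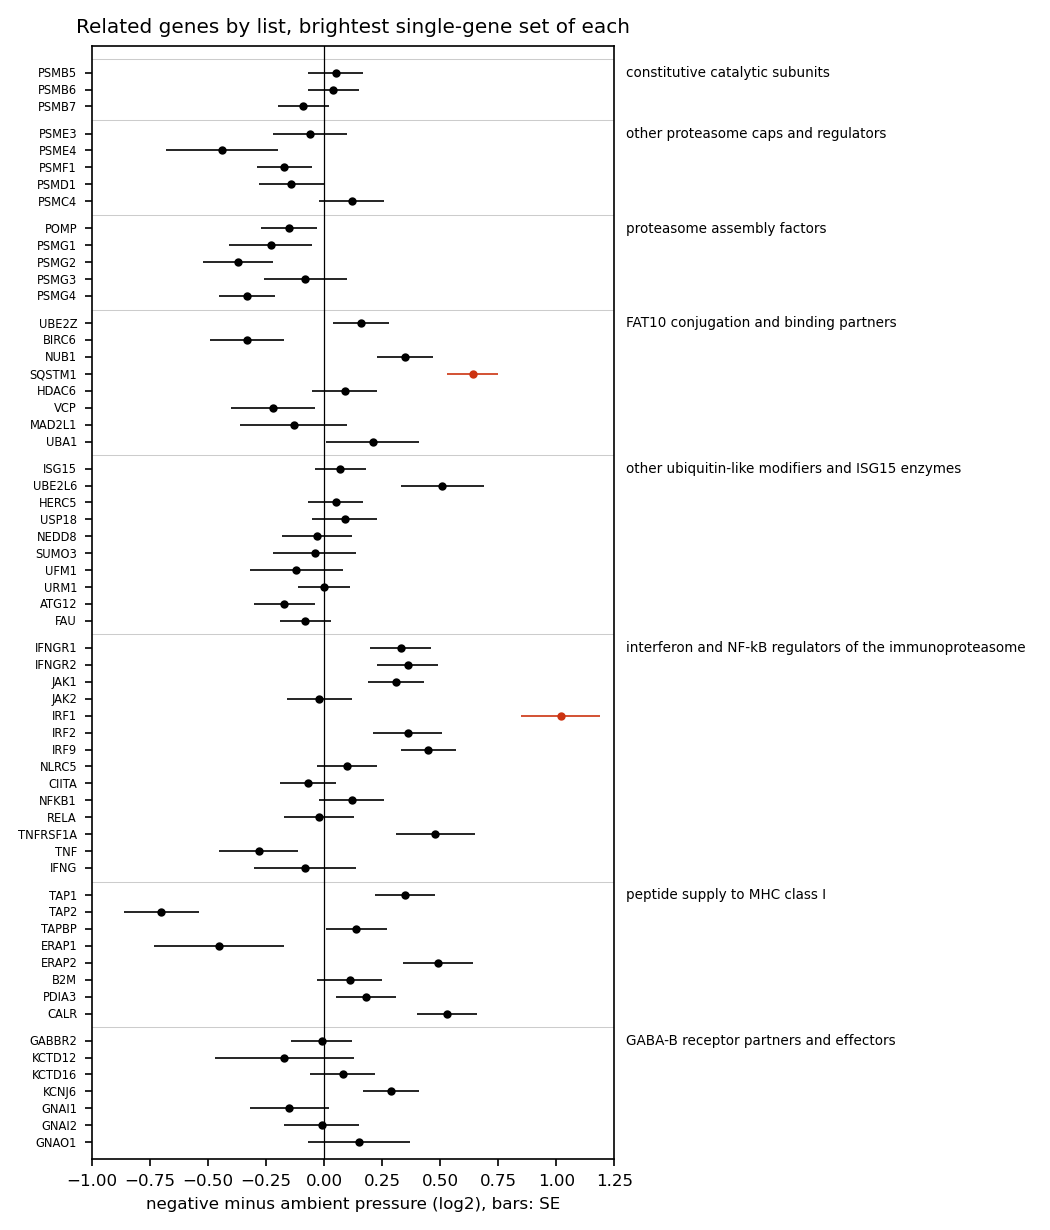
Difference of negative minus ambient pressure (log2, horizontal axis) for 60 genes of the 8 lists, each by its brightest single-gene probe set, with SE bars; red marks an adjusted p under 0.05 in limma. SQSTM1 (0.64) and IRF1 (1.02) are the red points, and TAP2 (-0.70) is the lowest.

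Of other cell types, 8 of 9 markers of leukocytes, dendritic cells and B cells were measured, and 1 rose. This was LAMP3, a lysosomal membrane protein used as a marker of mature dendritic cells: 5.93, 5.91 and 5.71 at ambient against 6.97, 6.76 and 7.0 (1.06 ± 0.13, SE; adjusted p = 0.0209). The call of LAMP3 held in 2 of 6 fits that left out 1 array (0.0311 to 0.149). The summed log2 value of the 8 was 29.3 to 30.7 at ambient and 30.8 to 32.8 under negative pressure. Without LAMP3 the sums of the other 7 overlapped, at 23.4 to 24.7 and 24.1 to 25.8. Of the 8, 5 lay above 0. Sums that separate by pressure were not particular to this list. The 7 measured keratinocyte markers summed to 74.4 to 74.9 at ambient and 75.5 to 76.1 under negative pressure, and none of them passed. CD14 stood at 0.39 (limma adjusted p = 0.546). CCR7, dim at a mean of 2.15, stood at 0.30 without overlap (0.379), and MS4A1 at -0.16 without overlap (0.786). The defining leukocyte marker PTPRC had a mean near the bottom of the scale (2.06, 2.30 and 2.06 against 2.44, 2.23 and 2.68). Of 3 endothelial markers 1 fell, CDH5 (-0.80 ± 0.14, adjusted p = 0.0492; 0.0822 to 0.222 without any 1 array), and none of 5 fibroblast, 3 melanocyte and 4 neuron markers passed. The part of these markers in the shared signal was not tested.

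The probe sets most like the shared probe set over the 6 arrays, each centred on its own mean, were sought among 23443 single-gene probe sets brighter than the median. The nearest was AQP3, a water and glycerol channel, at a root mean square difference of 0.27: it read 7.30, 7.22 and 6.95 against 8.89, 9.20 and 9.17. Next came TMT1A, a thiol methyltransferase (0.35), KLHL24, an adaptor of a ubiquitin ligase that acts on keratin (0.37), ELF3, an epithelial ETS factor (0.40), and STON1, an endocytic protein (0.41). Their differences were 1.93, 1.79, 2.03, 1.55 and 1.64. This is a likeness of patterns in 6 arrays, and the measure favours large differences. Of the members, PSMB8 was nearest at 0.97 and the UBA6 probe set of mean 6.26 farthest at 1.31.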

How the data were processed

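The authors deposited log2 values. The submitters' processing notes name RMA and, of Affymetrix, Expression Console 1.2. RMA corrects background, normalizes between arrays and summarises probes per probe set. No array batch or scan date was used here. Array medians were 3.81 to 3.89, and single values 0.89 to 13.4. Of 54675 probe sets, 62 Affymetrix controls were left out. The platform annotation named 1 gene for 41091 of the rest, several for 1801 and none for 11721.

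limma 3.58.1 (R 4.3.3; lmFit, then eBayes) was run on all 54613 probe sets, with no block and no filter on low values, and p-values were adjusted by Benjamini-Hochberg over all of them. Tests were two-sided at an adjusted p of 0.05. A list gene was represented by its single-gene probe set of highest mean. Named were all members, every list gene that passed, PSMB5, PSMB6, PSMB7, UBE2Z, NUB1, IRF1, NLRC5, TAP1 and GABBR2 in any case, and the 5 probe sets most like the shared one. Another gene of that rule is not reported here. List genes named beyond that rule were chosen after their values were seen. The members and lists were chosen with earlier results of these data known.

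Deviations from the group means correlated at 0.22, 0.23 and 0.47 between arrays numbered 1, 2 and 3 across probe sets. The pair of ambient replicate 1 and negative pressure replicate 2 stood at 0.36, above the pairs numbered 1 and 2. The check therefore does not settle whether arrays pair by number, and the labels state no pairing. The replicate block is given as an alternative fit only. The fit was tested on simulated data. Figures were drawn with matplotlib 3.10.9.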

Additional observations from a re-analysis of the deposited data

How the results depend on the processing

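The count of probe sets past the threshold, 262, was 1242 with the replicate block, 1516 with array weights, 600 without both replicate 3 arrays, 625 at an adjusted p under 0.1 and 4 at 0.01, and 1 to 235 when 1 array was left out. It was lowest without ambient replicate 2 or negative pressure replicate 2. None of the 14 members beside the shared probe set passed under any setting, the block included. Signs turned for small differences of GABBR1 and UBA6 alone. The brighter GABBR1 probe set stood at -0.00199 with median centring, -0.0169 with cyclic loess, -0.0811 with array weights, -0.0574 when both replicate 3 arrays were dropped and -0.0889 to 0.0937 without 1 array. The dimmer one stood at 0.10 with array weights, 0.10 when both replicate 3 arrays were dropped and -0.175 to 0.142 without 1 array. Of UBA6, the probe set of mean 2.03 stood at 0.0035 and 0.0513 in the same settings and at -0.12 to 0.0653 without 1 array, and that of mean 7.10 at 0.0351 when both replicate 3 arrays were dropped and -0.25 to 0.23 without 1 array. Those of means 7.67 (-0.20 to 0.01995) and 6.26 (-0.52 to 0.0634) turned without 1 array only. The causes were not tested. The shared probe set has no value in the fits of 1 probe set or 1 mean per gene, which take single-gene probe sets. Dim probe sets, such as those of GABBR1, limit what can be seen of that gene.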
